A study of Mus musculus with 12 samples.

Results

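Cytosolic ribosomal protein genes encode the protein part of the ribosomes that translate messenger RNA in the cytoplasm. The group was taken by gene symbol from a table of RNA sequencing values of mouse testis: symbols of the form Rpl or Rps with a number, plus Rplp0, Rplp1, Rplp2 and Rpsa, and only protein-coding genes. The rule found 83 genes of the 55487 in the table, of which 51 belong to the large and 32 to the small ribosomal subunit. A further 6 symbols fitted the pattern but are annotated as pseudogenes and were left out. All 83 genes passed the filter on low values, their lowest value in any library was 23.9 normalized counts, and 76 had a mean of at least 1000. A normalized count is the number of reads on a gene divided by 1 size factor per library.

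The libraries came from male germ cells (gonocytes, the precursors of spermatogonial stem cells) isolated from testes of mice carrying an Mvh-Venus reporter, in which the fluorescent protein Venus follows the germ cell gene Mvh (Ddx4). The 12 libraries fall into 4 stages of 3: E13.5 and E16.5 (days of embryonic development), P0 (birth) and P3 (3 days later). By title and source name every sample is wild type (WT). The genotype tag instead gives Morc1 (+/-) at E13.5 and P0 and Morc1 (-/-) at E16.5 and P3, so stage and tag cannot be told apart between neighbouring stages. Comparisons were therefore made between consecutive stages and also within each tag (P0 against E13.5, P3 against E16.5). Whether animals were pooled, and how many cells went into a sample, is not given in the sources used here. Nothing states that replicates came from separate animals, so p-values measure the spread between these samples, which may be technical.

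The libraries held 40946616 to 51533747 reads. Morc1 itself had 1621 to 1830 normalized counts (E13.5), 28328 to 32917 (E16.5), 7280 to 7708 (P0) and 10584 to 11129 (P3). On the scale of the file its level was thus highest at E16.5 and second highest at P3, the 2 stages tagged Morc1 (-/-). The order of P3 and P0 depends on the scaling, since the file's size factors averaged 1.94 at P0 and 1.01 at P3. With equal library totals, Morc1 would stand higher at P0 than at P3. A count over the whole gene does not show which allele was present. Germ cell markers (7 of 7 with a mean of at least 10, led by Dazl or Mael) summed to 234534 to 259602 normalized counts at E16.5, to 133741 to 142198 at P0, and to values between 227344 and 257194 at the other two stages. Of 8 Sertoli cell markers 7 had a mean of at least 10 at every stage, and their sum was 1372 to 2150 (E13.5), 2909 to 6109 (E16.5), 11097 to 21170 (P0) and 4561 to 6468 (P3). Leydig cell markers (4 of 5) summed to 571 to 723, 608 to 7681, 1078 to 6106 and 179 to 267 at the same stages, with Insl3 at 0 in all P3 libraries. Peritubular markers (2 to 3 of 4) summed to 81 to 101, 640 to 1145, 2216 to 2344 and 454 to 569. Erythroid, macrophage and endothelial markers summed to at most 2563, 1169 and 5192 in any library, with the embryonic globin Hbb-y at 0 in all libraries of E13.5, E16.5 and P3 and the macrophage marker Adgre1 at 0 in those of P3. Somatic markers were thus highest at P0 for Sertoli and peritubular cells, and the lower germ cell sum at P0 depends on the scaling. The part of these cells in the results below was not tested.

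A ribosome has a small subunit, which reads the messenger, and a large subunit, which joins the amino acids. Each ribosomal protein is needed in about equal amounts with the others, and making them is one of the largest costs of a growing cell. Several members have a paralog, a second gene for nearly the same protein. Some of these paralogs are known from testis, where autosomal copies such as Rpl10l and Rpl39l are active in male germ cells in which the X chromosome, home of Rpl10 and Rpl39, is silenced during meiosis. Gonocytes stop dividing in the fetal testis and start again after birth.

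Ribosomal protein genes were most abundant at E13.5, and their summed share of reads had its lowest means at E16.5 and P0. The 83 genes took 2.80, 2.93 and 2.98% of reads in the 3 libraries of E13.5, with a mean of 2.91% ± 0.0947 (SD, n = 3). At E16.5 they took 1.86, 1.66 and 2.18%, and at P0 they took 1.68, 1.71 and 1.97%. At P3 the shares were 2.31, 2.16 and 1.87%. Every E13.5 library thus lay above every later library. The ranges of E16.5, P0 and P3 all overlapped with one another. The later means were 1.90% ± 0.261 (E16.5), 1.79% ± 0.155 (P0) and 2.11% ± 0.225 (P3; SD, n = 3 each). The proteins of the mitochondrial ribosome, which translates the few messengers of the mitochondrial genome, took a steadier share, with 0.796% ± 0.0136 (E13.5), 0.767% ± 0.0627 (E16.5), 0.659% ± 0.0299 (P0) and 0.758% ± 0.0567 (P3; SD, n = 3 each). In bulk samples, a lower level per cell and fewer cells that carry the RNA cannot be told apart.

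**Figure D1:**
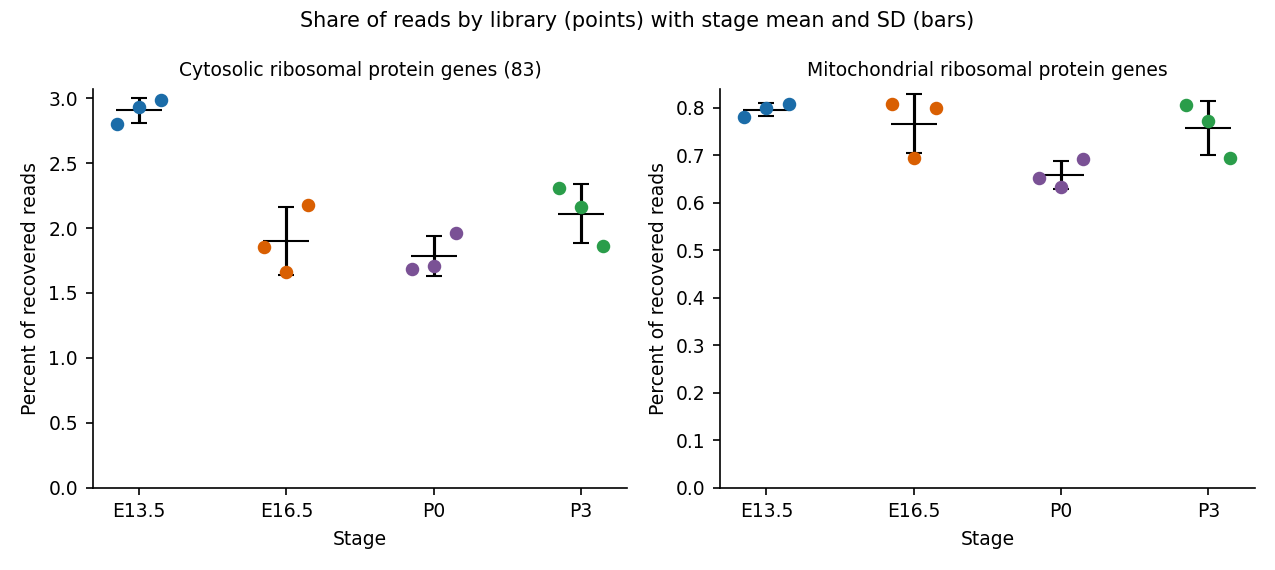
Percent of each library's reads on the 83 cytosolic (left) and on the mitochondrial (right) ribosomal protein genes, by stage. Points are libraries, the horizontal mark is the stage mean and the bars are the SD (n = 3); on the left all 3 points of E13.5, at 2.80 to 2.98%, lie above all later points.

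The members also moved together within the 3 later stages. At E16.5, library 4 (numbered as in the table's column heads) had the highest share of reads for 79 of the 83 members, and library 3 had the lowest for 67. At P0, library 4 was highest for 75 members. At P3, library 1 was highest for 78 and library 4 lowest for 82. E13.5 was more even, with library 4 highest for 46 members, library 3 for 23 and library 1 for 14. The 83 genes are thus not independent measurements of a stage, and at the 3 later stages a single library was the highest for most of them. Sertoli and Leydig markers in the same libraries went both ways: they were highest in library 4 at E16.5 (6109 and 7681 normalized counts in sum) and lowest in library 4 at P0 (11097 and 1078).

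Among the members, the 3 highest mean levels per exon length were those of Rpl4, Rplp0 (the base of the stalk that recruits elongation factors) and Rps3a1. Levels per length are given as RPKM, the reads per kilobase of exon scaled to library size. On that scale Rpl4 stood at 1211 ± 18.5 (E13.5), 1394 ± 101 (E16.5), 1541 ± 79.9 (P0) and 1004 ± 41.0 (P3; SD, n = 3 each). Rplp0 had 1095 ± 79.3, 636 ± 56.9, 790 ± 61.2 and 1111 ± 67.3, and Rps3a1 had 1070 ± 18.6, 916 ± 133, 812 ± 49.6 and 780 ± 80.5 (SD, n = 3 each). Per length, Rpl4 was thus first at E13.5, E16.5 and P0, and Rplp0 was first at P3, where their ranges of mean ± SD just touched. Rps3a1 was second at E16.5, and Rplp0 and Rps3a1 differed by less than the SD at E13.5 and at P0. The median member stood at 110 (E13.5), 56.8 (E16.5), 49.7 (P0) and 91.9 (P3) on the same per-length scale. Of the summed normalized counts of the members, the 10 highest held 44.0, 51.1, 51.6 and 43.5% at the 4 stages, so a few genes made up more of the total at the middle stages.

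**Figure D2:**
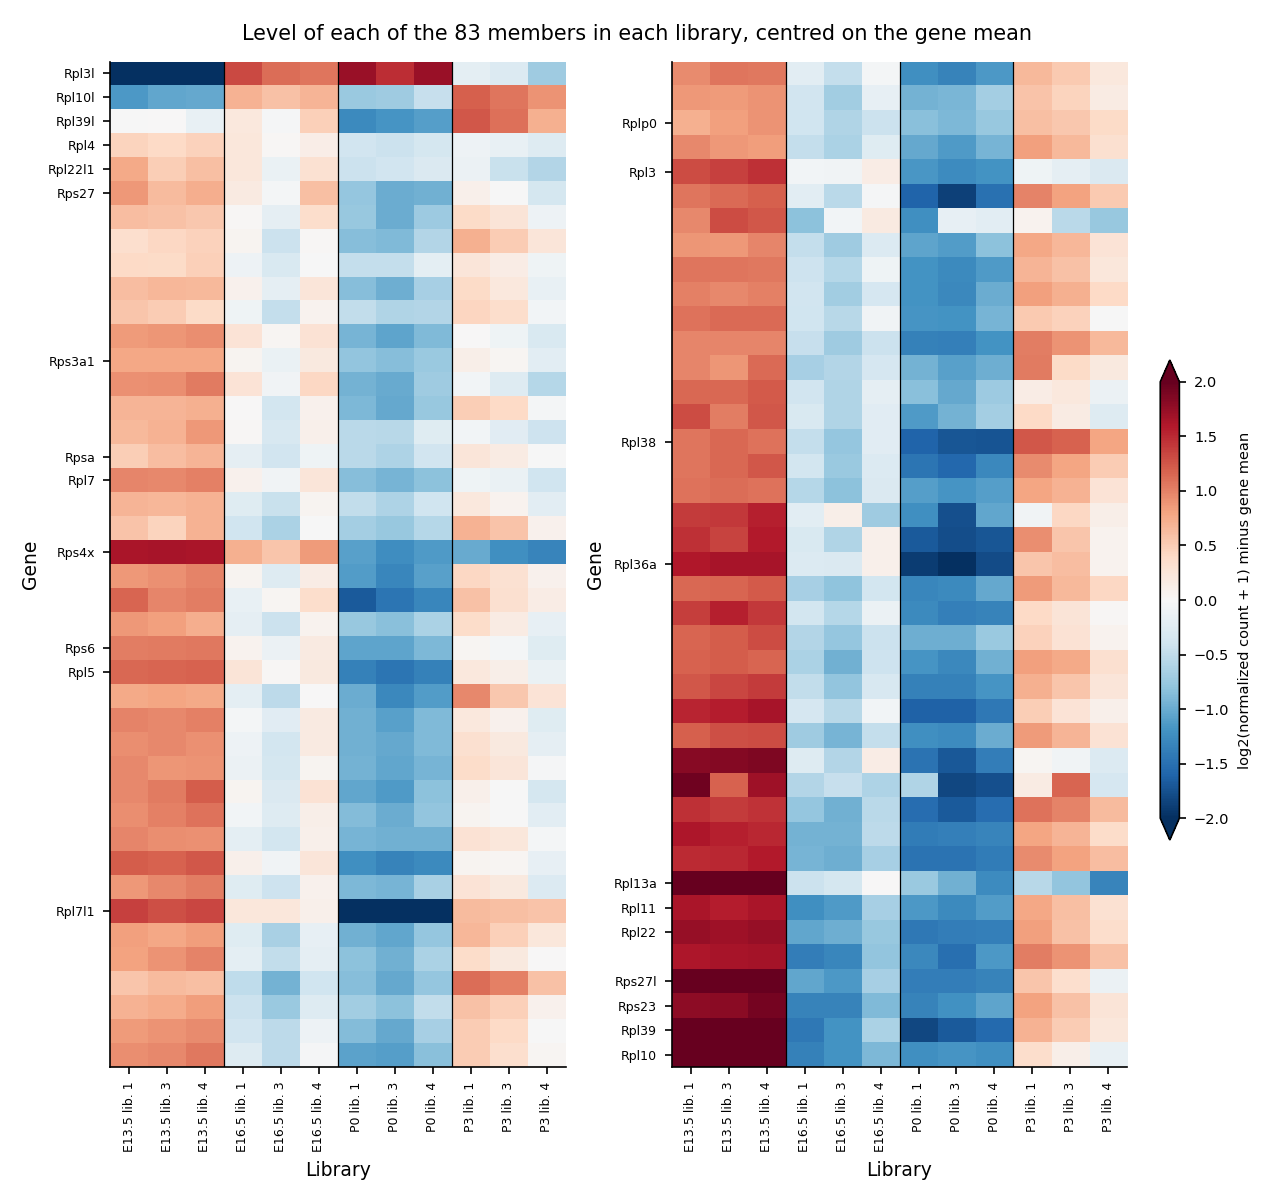
Level of each of the 83 genes (rows) in each of the 12 libraries (columns), as log2(normalized count + 1) minus the gene's mean over libraries; colours are clipped at the ends of the scale and genes are ordered by their change from E13.5 to E16.5, with names for those described in the text. Most rows are red at E13.5 and blue at P0, and Rpl3l, Rpl10l and Rpl39l at the top of the left panel do not follow.

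The first comparison asks how the transcriptome of gonocytes differs between E13.5 and E16.5. On the scale of the deposited file, 80 of 83 members fell and 2 rose, by the limma test with Benjamini-Hochberg adjusted p under 0.05. Of all 22384 genes tested, 34.6% fell and 45.5% rose. The median member changed by -1.25 on the log2 scale, a 2.37-fold fall, while the median of all genes was 0.31. With equal library totals 69 fell and 4 rose, against 23.7% and 55.6% of all genes. The fall was called and at least 2-fold for 58 members, against 22.1% of all genes. In 80 members every E16.5 library lay below every E13.5 library, and in 2 every one lay above, against 35.7% and 44.5% of all genes. All 32 small-subunit genes fell, with a median of -1.37.

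The steepest falls were those of Rpl10 and Rpl39, both on the X chromosome. The other X-linked members did not fall as far. Rpl36a changed by -1.79 ± 0.13 and Rps4x by -0.93 ± 0.09 (log2, SE), beside -1.25 for the median member. Rpl10, whose protein completes the large subunit late in its assembly, had 10364, 10801 and 11036 normalized counts at E13.5 and 877, 974 and 1197 at E16.5. The libraries did not overlap, and the change was -3.41 ± 0.12 (log2, SE; adjusted p = 1.27e-13), a 10.6-fold fall. Rpl39, a very small protein at the exit tunnel of the large subunit, had 2330, 2093 and 1960 normalized counts at E13.5 and 161, 190 and 279 at E16.5. It changed by -3.37 ± 0.17 (log2, SE; adjusted p = 1.77e-11). Next came Rps23 at -3.02 ± 0.13 and Rps27l at -3.01 ± 0.14 (log2, SE). At the other end of those that fell stood the abundant Rpl4, at -0.31 ± 0.07 (log2, SE; adjusted p = 0.000862), whose levels were 127029 to 132889 at E13.5 and 98030 to 113009 at E16.5. The direction for Rpl4 held only under some scalings: with all libraries scaled to equal totals it was 0.20.

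The 2 members that rose were paralogs, Rpl3l and Rpl10l. Rpl3l, a paralog of Rpl3 known from heart and skeletal muscle, had 63.3, 88.1 and 90.4 normalized counts at E13.5 and 1070, 924 and 901 at E16.5. Its change was 3.58 ± 0.16 (log2, SE; adjusted p = 2.83e-12), the largest rise of any member. Rpl10l had 2413, 2592 and 2609 normalized counts at E13.5 and 8656, 7949 and 8523 at E16.5, a change of 1.72 ± 0.09 (log2, SE; adjusted p = 1.43e-11). Rpl39l, with 2250 to 2497 at E13.5 and 2457 to 3456 at E16.5, was the single member that was not called (0.27 ± 0.13, log2, SE; adjusted p = 0.0592). The ranges of its libraries overlapped. It passed the threshold with edgeR, with DESeq2, and under TMM, median-of-ratios and equal-total scaling (0.29, 0.29, 0.37, 0.49 and 0.78).

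**Figure D3:**
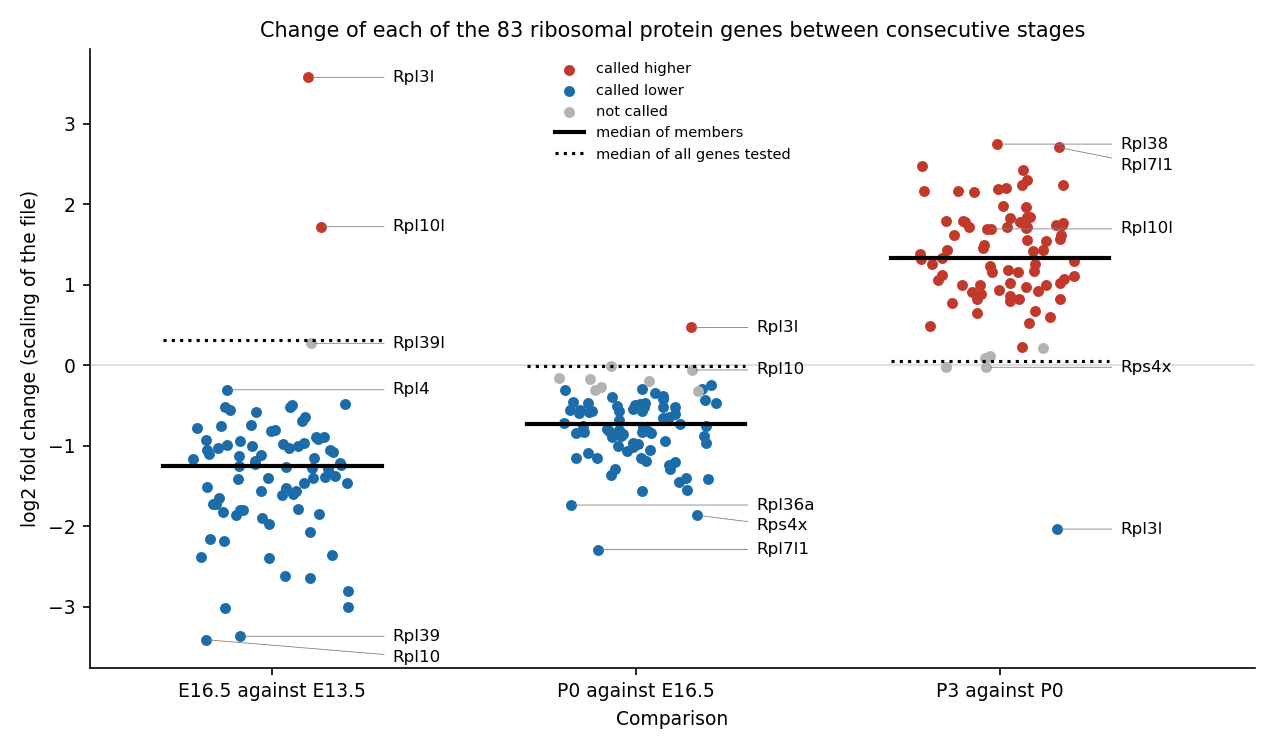
Log2 fold change of each of the 83 members in the 3 consecutive comparisons on the scale of the file, with points coloured by the limma call (adjusted p under 0.05); solid lines are the medians of members and dotted lines the medians of all genes tested. The medians of members are -1.25, -0.74 and 1.33, and Rpl3l lies on the other side of 0 from the median member in each comparison.

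The promoters of Rpl10, Rpl10l, Rpl39 and Rpl39l are shown because Rpl10 and Rpl39 fell the most between E13.5 and E16.5 while their autosomal paralogs Rpl10l and Rpl39l were not called lower. Each line gives 120 bases before and 20 bases after the gene's start in RefSeq on GRCm38.p6, in the direction of the gene. Capitals mark a match to CCGGAAG (a word bound by ETS family factors) or to CTTTCC (a pyrimidine run like those at the starts of ribosomal protein genes), on either strand. The windows are chrX:74270696-74270835 (plus strand) for Rpl10, chr12:66284382-66284521 (minus) for Rpl10l, chrX:37085203-37085342 (minus) for Rpl39 and chr16:10170108-10170247 (plus) for Rpl39l.
Rpl10: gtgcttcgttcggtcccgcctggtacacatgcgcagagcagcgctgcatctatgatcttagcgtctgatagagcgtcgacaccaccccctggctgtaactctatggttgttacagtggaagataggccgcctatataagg
Rpl10l: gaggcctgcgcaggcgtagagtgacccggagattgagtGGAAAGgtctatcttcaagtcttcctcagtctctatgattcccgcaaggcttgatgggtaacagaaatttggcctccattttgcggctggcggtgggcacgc
Rpl39: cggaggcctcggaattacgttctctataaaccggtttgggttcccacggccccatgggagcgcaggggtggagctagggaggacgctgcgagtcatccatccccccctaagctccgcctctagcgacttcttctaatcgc
Rpl39l: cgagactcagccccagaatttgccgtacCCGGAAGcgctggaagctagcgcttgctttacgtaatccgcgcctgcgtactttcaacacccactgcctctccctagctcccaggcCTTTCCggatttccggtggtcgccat
Rpl10 and Rpl39 held neither word in these windows, Rpl10l held CTTTCC on the other strand, and Rpl39l held both words on its own strand. Over longer windows of 300 bases, 63 of the 83 members had a RefSeq promoter. In that longer window Rpl39, like Rpl39l, did hold CCGGAAG, while Rpl10 and Rpl10l did not. CCGGAAG stood in 26 of these 63 (41.3%) against 9.93% of all 27025 promoters, on either strand. CTTTCC stood in 33 (52.4%) against 29.3%, and AAGATGGC, a word bound by YY1, in 6 (9.52%) against 3.19%. A match is a description of letters, not of binding.

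Rpl10 spans X:74270812-74273135 in GENCODE M21 on GRCm38 and has up to 7 exons. Rpl10l lies at 12:66283379-66284401 as a gene of 1 exon. Rpl39 (X:37082520-37085402) and Rpl39l (16:10170226-10174911) have up to 3 exons each. The RefSeq window shown for Rpl39 ends at 37085342 and so lies wholly inside its GENCODE span, unlike the windows of the other genes shown. The words found for Rpl39 could thus depend on which start is used, and a window placed at the GENCODE start was not searched. Reads of near-identical genes can be miscounted, so the share of 50-base words of each gene's transcripts that also occur in other genes was computed. It was 33.5% for Rpl10 and 7.60% for Rpl10l, and 6.81% for Rpl39 and 0% for Rpl39l. Over the 83 members the median share was 23.5%, with 17 members under 10% and 7 over 50%. Among the 17 with little shared sequence, 14 fell and 2 rose from E13.5 to E16.5, with a median of -1.15. Pseudogenes named after members (300 genes) took 3.03 to 3.12 reads per 100 member reads on average at each stage, so that ratio differed little between stages.

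The members' balance within a pair is a ratio of 2 genes in the same library and does not depend on any size factor. The ratio was tested over the 4 stages with an exact permutation test of the F statistic over all 369600 assignments of 12 libraries to stages, with Benjamini-Hochberg adjustment over the 7 pairs. All 7 ratios differed between stages, with adjusted p from 0.000114 to 0.00331. The smallest p that this design can give is 6.49e-05 before adjustment, and 4 of the pairs reached it.

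Rpl10l passed Rpl10 between E13.5 and E16.5. Per length, with 2053 exon bases for Rpl10 and 1023 for Rpl10l, Rpl10 had 97.5 ± 4.0 and Rpl10l had 46.3 ± 2.5 RPKM at E13.5 (SD, n = 3). At E16.5 these levels were 13.2 ± 2.7 and 217 ± 13.6, at P0 they were 19.8 ± 0.9 and 141 ± 20.6, and at P3 they were 27.7 ± 4.3 and 254 ± 21.4. Of the reads on the pair, Rpl10l took 18.9 to 19.4% (E13.5), 87.7 to 90.8% (E16.5), 76.6 to 80.2% (P0) and 80.9 to 83.1% (P3). The E13.5 libraries thus stood far below all later ones. The log2 ratio went from -2.08 ± 0.0218 at E13.5 to 3.05 ± 0.236 at E16.5 (SD, n = 3; exact permutation test, adjusted p = 0.000114), a 35.1-fold change.

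Rpl39l and Rpl39 started near parity in reads and parted in the same direction. Of the reads on the pair, Rpl39l took 51.5 to 54.4% (E13.5), 92.5 to 94.7% (E16.5), 88.7 to 89.3% (P0) and 88.9 to 89.7% (P3). Per length, Rpl39l had 54.0 ± 3.3 RPKM at E13.5 and 93.8 ± 19.4 at E16.5, and Rpl39 had 27.6 ± 2.2 and 3.9 ± 1.3 (SD, n = 3). The lengths used were 831 bases for Rpl39l and 1434 for Rpl39, so the balance per length within a stage depends on the annotated exons. The ratio changed 12.5-fold between E13.5 and E16.5 (exact permutation test, adjusted p = 0.000379). In both pairs the X-linked gene was thus the lower one from E16.5 on.

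Rpl3l stayed far below Rpl3 at every stage, but its part rose until P0. Rpl3, which carries a loop near the peptidyl transferase centre, had 385 ± 21.9, 212 ± 26.6, 145 ± 5.7 and 164 ± 8.6 RPKM at the 4 stages, and Rpl3l had 0.92 ± 0.2, 15.5 ± 1.0, 34.1 ± 3.3 and 4.7 ± 0.8 (SD, n = 3). Of the reads on the pair, Rpl3l took 0.10 to 0.14% (E13.5), 3.13 to 4.23% (E16.5), 10.1 to 11.3% (P0) and 1.24 to 1.55% (P3). No stage overlapped with another. The ratio changed 99.0-fold between E13.5 and P0 (exact permutation test, adjusted p = 0.000114).

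Rpl22l1 took more of its pair at the stages when Rpl22 was low. Rpl22, an RNA-binding protein of the large subunit, had 5144 to 5293 normalized counts (E13.5), 768 to 938 (E16.5), 591 to 614 (P0) and 2028 to 2802 (P3). Rpl22l1 had 905 to 1083, 585 to 789, 474 to 525 and 424 to 593 at those stages, a much flatter course. Its part of the pair's reads was 15.0 to 17.0% (E13.5), 42.0 to 49.3% (E16.5), 44.5 to 46.1% (P0) and 17.1% ± 0.50 (P3; SD, n = 3). The ratio changed 4.47-fold between E13.5 and E16.5 (exact permutation test, adjusted p = 0.00331).

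The remaining pairs did not follow that order. Rps27l, a paralog of Rps27 that p53 can induce, took 81.4 to 82.7% of its pair's reads at E13.5 and 42.9 to 45.6% at E16.5, so here the paralog fell more. It then took 54.2 to 58.2% at P0 and 67.9 to 71.2% at P3. Rpl7l1 took 30.7 to 31.7% of the reads on Rpl7 and Rpl7l1 (E13.5), 24.2 to 30.2% (E16.5), 12.1 to 13.8% (P0) and 36.8 to 40.8% (P3), lowest at P0. The ratios changed 5.71-fold and 4.11-fold between their extreme stages (exact permutation test, adjusted p = 0.000114 for each).

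**Figure D4:**
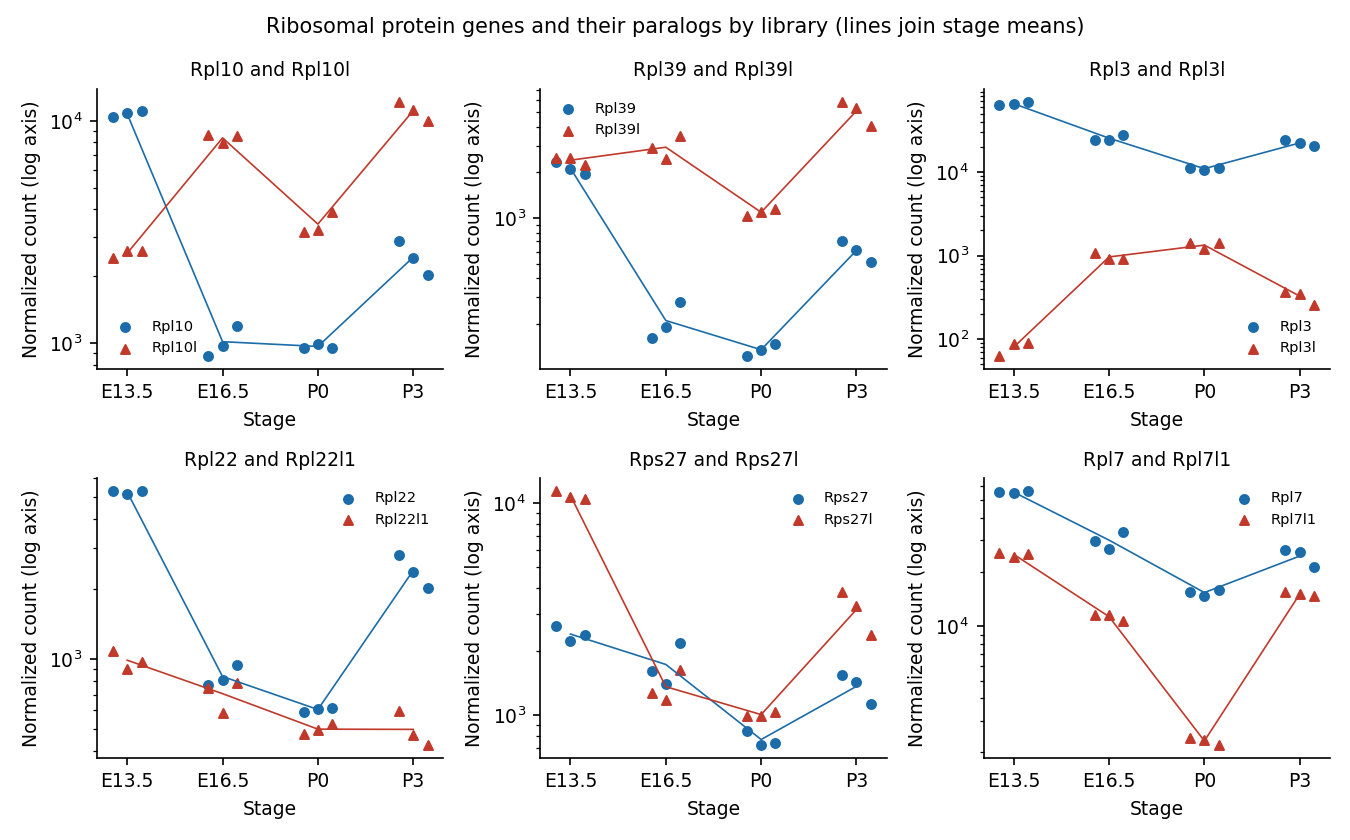
Normalized counts (log axis) by library for 6 pairs of a ribosomal protein gene (blue circles) and its paralog (red triangles), with lines joining stage means. Rpl10l lies below Rpl10 at E13.5, at 2413 to 2609 against 10364 to 11036, and above it in all later libraries.

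The next comparison asks what differed between E16.5 and birth. On the scale of the file 74 members fell and 1 rose, against 33.4% and 27.6% of all genes, with a median of -0.74 (all genes -0.01). In 67 members every P0 library lay below every E16.5 library and in 1 every one lay above, against 36.3% and 33.2% of all genes. This direction depended on the scaling. The P0 size factors of the file averaged 1.94, against 1.13 at E16.5, while the libraries held 46320274 and 42558178 reads on average. With equal library totals, 25 members were lower and 14 higher at P0, against 14.8% and 54.9% of all genes, and the median member stood at -0.07. That scaling moved the median of all genes to 0.68, so relative to all genes the median member was lower by 0.72 on the file's scale and by 0.75 with equal totals.

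The largest falls from E16.5 to P0 were those of Rpl7l1 and Rps4x. Rpl7l1 had 11622, 11638 and 10706 normalized counts at E16.5 and 2402, 2345 and 2192 at P0, a change of -2.29 ± 0.06 (log2, SE; adjusted p = 1.56e-13). Rps4x, a small-subunit gene on the X chromosome, had 13506, 12146 and 14929 at E16.5 and 3875, 3476 and 3760 at P0, a change of -1.87 ± 0.09 (log2, SE; adjusted p = 1.94e-11). The libraries did not overlap in either gene, and both fell under all 4 scalings. Rpl36a, also X-linked, changed by -1.74 ± 0.13 (log2, SE; adjusted p = 8.51e-09), from 929 to 1226 normalized counts down to 285 to 331.

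Rpl3l was the member that rose on the file's scale, by 0.47 ± 0.16 (log2, SE; adjusted p = 0.0182), from 901 to 1070 up to 1191 to 1410 normalized counts. The call was lost when E16.5 library 3 or 4, or P0 library 1 or 4, was left out. Rps23, a small-subunit protein close to the decoding site, had 1869 to 2561 normalized counts at E16.5 and 1880 to 2284 at P0 and was not called (-0.02 ± 0.13, log2, SE; adjusted p = 0.926). Rpl10 and Rpl11 were not called either, with changes of -0.06 ± 0.12 and -0.17 ± 0.13 (log2, SE; adjusted p = 0.683 and 0.277). Rpl10 and Rps23, 2 of the 4 members with the steepest fall by E16.5, were thus not called in this comparison on the file's scale. Rpl39 and Rps27l fell further on that scale (-0.60 and -0.42, log2, with limma adjusted p = 0.00683 and 0.014). With equal library totals Rpl10 and Rps23 were called higher at P0 (0.60 and 0.65, log2). Rpl39 and Rps27l were then not called (0.057 and 0.24, log2).

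From P0 to P3 most members went up together, although the ranges of their summed share of reads overlapped between these stages. On the scale of the file 77 rose and 1 fell, against 40.1% and 36.4% of all genes, with a median of 1.33, a 2.52-fold rise (all genes 0.05). In 77 members every P3 library lay above every P0 library and in 1 every one lay below, against 42.1% and 38.8% of all genes. The rise was called and at least 2-fold for 57 members, against 24.7% of all genes. With equal library totals 53 rose and 9 fell, against 19.7% and 58.4% of all genes, and the median member stood at 0.49 while that of all genes was -0.86. The direction of the median member was thus the same under both, but fewer members were called. On the scale of the file, Sertoli marker sums were lower at P3 (4561 to 6468) than at P0 (11097 to 21170). Germ cell marker sums were higher on that scale (227344 to 245325 against 133741 to 142198). That germ cell difference depends on the scaling, since the file's size factors averaged 1.94 at P0 and 1.01 at P3. With equal library totals the germ cell sums would not be higher at P3. The part of either marker set in the rise was not tested.

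**Figure D5:**
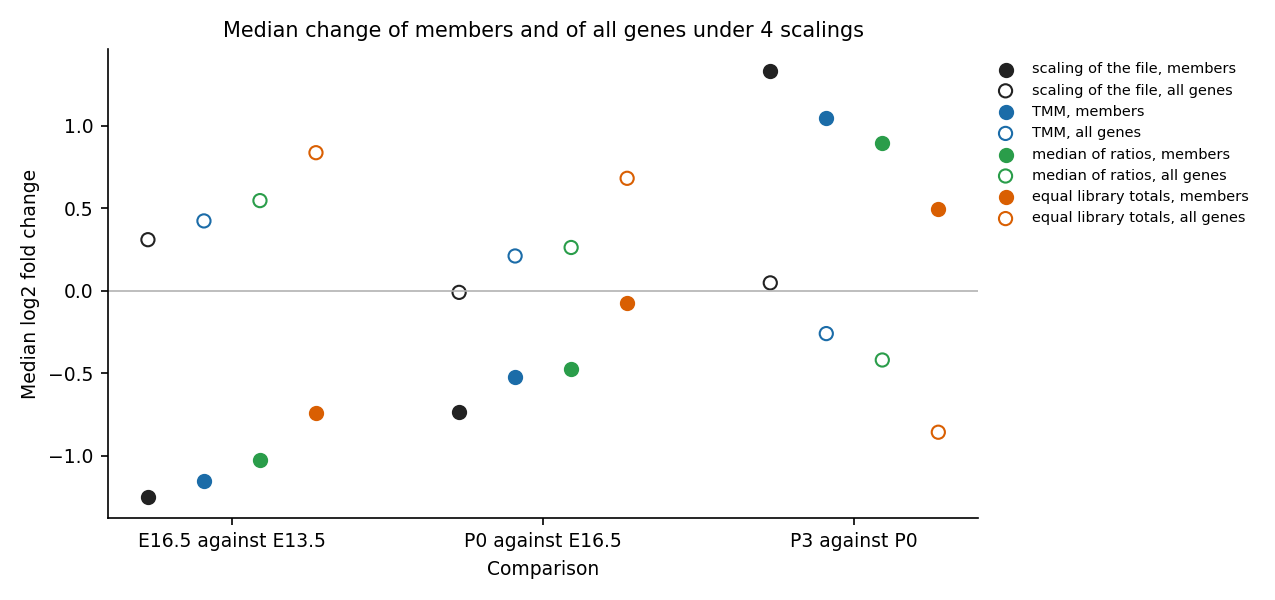
Median log2 fold change of the 83 members (filled) and of all genes tested (open) in the 3 consecutive comparisons under 4 scalings of the libraries (colours). Filled points lie below open ones in the first 2 comparisons and above them in the last one under every scaling; the median member at P0 against E16.5 moves from -0.74 to -0.07.

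Rpl38 and Rpl7l1 rose the most by P3. Rpl38, a large-subunit protein known for its part in translating Hox messengers, had 456, 427 and 420 normalized counts at P0 and 3309, 3147 and 2402 at P3. It changed by 2.75 ± 0.13 (log2, SE; adjusted p = 8.52e-12) and so came back to the level of E13.5, where it had 2932 to 3106. Rpl7l1 changed by 2.71 ± 0.06 (log2, SE; adjusted p = 8.89e-15), to 14777 to 15456 normalized counts. Both genes also had separate ranges at P0 and P3. Rpl10l and Rpl39l rose as well, by 1.69 ± 0.09 and 2.21 ± 0.13 (log2, SE; adjusted p = 2.74e-11 and 1.03e-10).

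Rpl3l went the other way, from 1191 to 1410 down to 260 to 372 normalized counts, a change of -2.04 ± 0.16 (log2, SE; adjusted p = 5.44e-09). Among the members that were not called were Rps4x and Rpl22l1. Rps4x had 3476 to 3875 normalized counts at P0 and 3311 to 4092 at P3, a change of -0.03 ± 0.09 (log2, SE; adjusted p = 0.798). Its ranges overlapped, whereas those of the 3 other X-linked members did not: Rpl10 rose by 1.32 ± 0.12, Rpl36a by 2.30 ± 0.13 and Rpl39 by 2.16 ± 0.17 (log2, SE). Under TMM, median-of-ratios and equal-total scaling Rps4x was called lower at P3, at -0.31, -0.47 and -0.87.

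Rps4x has an autosomal relative in the table, Rps4l, annotated as a transcribed processed pseudogene on chromosome 6 and so not a member. Rps4l had 66348, 72657 and 85159 normalized counts (E13.5), 44680 to 48807 (E16.5), 8203 to 10233 (P0) and 36950 to 41263 (P3). From P0 to P3 it rose (2.09, log2; limma adjusted p = 4.73e-12). Of the reads on both, Rps4l took 72.1 to 76.9% (E13.5), 76.6 to 78.6% (E16.5), 70.0 to 73.1% (P0) and 91.0 to 91.8% (P3). The ratio changed 4.34-fold between P0 and P3 (exact permutation test, adjusted p = 0.000364). Of the 50-base words of Rps4x 41.2% occur in other genes, and of those of Rps4l 14.9%, so reads could be split between copies.

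Within the tag Morc1 (+/-), P0 against E13.5, 81 members fell and 2 rose, against 40.5% and 45.7% of all genes, with a median of -2.05. Under equal library totals the median was -0.88, with 67 members lower and 4 higher, against 19.6% and 66.2% of all genes, whose median was 1.51. Rpl39 fell the most (-3.97, log2; adjusted p = 1.36e-12), and Rpl3l (4.05 ± 0.16) and Rpl10l (0.43 ± 0.09; log2, SE) rose. Within the tag Morc1 (-/-), P3 against E16.5, 56 members rose and 10 fell, against 34.2% and 35.2% of all genes, with a median of 0.57. Among those that fell were Rps4x (-1.89 ± 0.09), Rpl3l (-1.57 ± 0.16), Rpl22l1 (-0.51 ± 0.14), Rpl4 (-0.30 ± 0.07) and Rpl7 (-0.29 ± 0.09; log2, SE). The median of all genes was -0.05 in that comparison.

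Over the 4 stages as a whole, on the scale of the file, 78 members had their highest mean at E13.5, 4 at P3 and 1 at P0. On that scale 79 had their lowest mean at P0. This lowest stage depends on the scaling, since the file's size factors averaged 1.94 at P0 and 1.13 at E16.5. The same counts over all genes were not made. All 83 differed among stages by the limma F-test (adjusted p under 0.05), but so did 95.2% of all genes. On the scale of the file, the median member at P3 stood at 60.2% of its E13.5 mean. The range went from 12.5% for Rpl13a (named after its values were seen; 35.4% of its exon bases lie under exons of other genes) to 437% for Rpl10l. Rps4x stood at 14.2% and Rpl10 at 22.7%. On that scale a total of 5 members were above their E13.5 mean at P3, among them Rpl10l, Rpl3l (407%) and Rpl39l (212%).

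On the scale of the file, Rps6, Rpl5, Rpl11 and Rpsa, known for roles beyond the ribosome, fell by E16.5 and rose by P3. Rpl11 was not called at P0 against E16.5 (-0.17, log2). With equal library totals Rpl11 and Rpsa were called higher at P0 than at E16.5 (0.50 and 0.37, log2). Under that scaling Rpsa was not called at P3 against P0 (-0.19, log2). Rps6, the small-subunit protein phosphorylated by S6 kinase when cells grow, had 39730 to 40993 normalized counts (E13.5), 18196 to 22261 (E16.5), 9439 to 10486 (P0) and 16609 to 20223 (P3). Rpl5, which with Rpl11 and 5S ribosomal RNA can bind the p53 regulator Mdm2, had 60436 to 61809, 27876 to 32498, 9906 to 10738 and 24844 to 31791. Rpl11 fell to its low level sooner, with 8490 to 8904 (E13.5), 1225 to 1797 (E16.5), 1185 to 1322 (P0) and 3543 to 4903 (P3). Both members of this pair thus fell by E16.5 (adjusted p = 1.08e-08 and 8.27e-12), and Rpl5 fell further by P0 (-1.55 ± 0.08, log2, SE; adjusted p = 1.42e-10). Rpsa, a small-subunit protein also known as the laminin receptor, had 42852 to 49014, 23490 to 28740, 19986 to 23350 and 30291 to 36301 normalized counts.

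Other genes of the ribosome and its supply were described from lists, by counts without a test of the list. Beside them stand the shares over all genes given above: 34.6% fell and 45.5% rose by E16.5, 33.4% fell and 27.6% rose by P0, and 40.1% rose and 36.4% fell by P3. Of 5 ribosomal genes that the symbol pattern misses, 4 fell by E16.5, 3 fell by P0 and 4 rose by P3, with medians of -1.47, -0.38 and 1.36. Among them Rack1, a scaffold protein on the small subunit, had 80086 ± 4227 normalized counts (E13.5), 13943 ± 738 (E16.5), 8139 ± 329 (P0) and 27751 ± 2190 (P3; SD, n = 3 each). Of 30 nucleolar assembly factors, 26 fell and 3 rose by E16.5, 28 fell and 0 rose by P0, and 28 rose and 2 fell by P3, with medians of -1.13, -0.74 and 1.38. The nucleolar chaperone Npm1 changed by -2.68, -0.23 and 1.34 in turn, and fibrillarin (Fbl), which methylates ribosomal RNA, by -0.19, -1.58 and 1.19 (log2; limma, all 6 called). Both changed in the same directions but at different times.

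RNA polymerase I genes, whose products make ribosomal RNA, had their lowest median at P0 against E16.5. Of 12 tested, 7 fell and 2 rose by E16.5 (median -0.37), 10 fell and 1 rose by P0 (median -0.99), and 10 rose and 1 fell by P3 (median 1.22). With equal library totals the first of these turned, to 6 higher and 5 lower with a median of 0.14, while P0 against E16.5 kept its direction, with 6 lower and 3 higher. The pre-initiation factor Ubtf changed by -0.25, -1.39 and 1.82, and Rrn3 by -1.74, -0.79 and 1.51 (log2; limma, all 6 called). Of 14 listed elongation factors and other genes with a pyrimidine-rich start, 13 were tested. Eef2 was left out, with 0 normalized counts at every stage, and the reason for its missing reads was not tested. Of the 13, 11 fell by E16.5, 11 fell by P0 and 10 rose by P3, with medians of -0.78, -0.72 and 0.80. The poly(A)-binding protein gene Pabpc1 was not called in the first 2 of these comparisons (0.16 and -0.09, log2).

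Growth signalling genes were divided mainly at P0 against E16.5 on the scale of the file. Of 12, 11 fell and 1 rose by E16.5 (median -0.75), 6 fell and 2 rose by P0 (median -0.42), and 10 rose and 1 fell by P3 (median 0.89). Mycn, a Myc family transcription factor of growing cells, changed by -4.98 and 0.57 and then rose by P3 (log2; limma adjusted p = 1.55e-14, 0.00233 and 4.43e-10). The S6 kinase gene Rps6kb1 changed by -2.19, 0.02 and 1.03, of which the middle value was not called (adjusted p = 0.916). Mtor, the kinase that drives ribosome production, was the one that rose by E16.5 (0.96, log2). Of 76 mitochondrial ribosomal protein genes, 60 fell and 9 rose by E16.5, 60 fell and 1 rose by P0, and 70 rose and 2 fell by P3, with medians of -0.85, -0.73 and 1.25. The scaling moved other lists too. With equal totals, 9 assembly factors were higher and 12 lower at P0 against E16.5, and 22 mitochondrial genes were higher and 28 lower, beside 54.9% of all genes higher and 14.8% lower. At P3 against P0 with equal totals, 4 growth signalling genes were higher and 3 lower (median 0.05), and of the elongation factors and other genes with a pyrimidine-rich start 6 were higher and 4 lower (median -0.04), beside 19.7% of all genes higher and 58.4% lower.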

How the data were processed

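Male germ cell RNA was sequenced in 12 libraries, 3 at each of 4 stages. Per the labels' protocols, a kit for small amounts of cells (RNA plus XS) gave the RNA, and library preparation combined SMART-seq v4 amplification with the TruSeq mRNA kit. The submitters' processing notes name bcl2fastq 2.20, cutadapt 1.18, HISAT2 2.1.0, featureCounts 1.5.2, DESeq2 1.26.0 and the mm10 build. The authors deposited 1 table whose signal is a featureCounts read count per gene divided by a size factor per library. Dividing each library by its smallest value gave whole numbers for 100% of values (tolerance 0.001), so reads and factors were recovered. The reads carry no molecular identifiers. The handling of reads that match several genes, and the strand setting, are not given in the sources used here.

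Columns are numbered 1, 3 and 4 within a stage but titles 1 to 3, so columns were mapped to stages and not to single samples. Symbols were found for 55141 of 55487 gene identifiers (99.4%). GENCODE M21 (GRCm38) gave positions and exon lengths. The 22384 genes that reached 10 normalized counts in 3 or more libraries were tested with limma 3.58.1 in R 4.3.3 on log2(normalized count + 1), with a trend, 4 stages sharing the spread (8 residual degrees of freedom) and Benjamini-Hochberg adjustment over all genes. Fold changes of low genes are understated on this scale. Each script with a statistic over many genes was tested on simulated data. Alternatives were other scalings, pseudocounts (0.1 and 10), filters, 2-stage fits, a minimum absolute log2 fold change of 1, edgeR 4.0.16 and DESeq2 1.42.0 on the recovered reads, each library left out, and a block on the column numbers. The edgeR quasi-likelihood test called 10126 genes higher and 7725 lower for E16.5 against E13.5, 6618 and 7752 for P0 against E16.5, and 9090 and 8268 for P3 against P0.

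Named genes are the paralog pairs, X-linked members, Rps6, Rpl5, Rpl11, Rpsa, Rplp0, the 2 highest and 2 lowest changes of each consecutive comparison and the 3 highest levels per length. Of the listed pathway genes, 3 had no match. The members and the gene lists were chosen with earlier results of these data known.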

Additional observations from a re-analysis of the deposited data

How the results depend on the processing

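The replicate numbers of the titles could not be matched to columns, so a replicate block was fitted on the column numbers 1, 3 and 4, chosen after seeing the data. With it 80 members fell and 2 rose between E13.5 and E16.5, 74 fell and 1 rose from there to P0, and 77 rose and 1 fell by P3, as without the block. Within the tags it gave 81 lower and 2 higher for Morc1 (+/-), and 10 lower and 56 higher for Morc1 (-/-). All 7 pair ratios passed with stages exchanged within a number (exact permutation test, adjusted p of 0.00304 to 0.0139). Deviations from the stage mean of same-numbered libraries correlated by -0.0356 to 0.0423 over 18 pairs of libraries, and 2 of 12 libraries correlated best with their own number. Over all genes tested, same-numbered libraries thus did not deviate together. Whether a number marks a shared batch or litter is not given in the sources used here. Scaling to equal library totals gave 4 members higher at E16.5 against E13.5, 14 higher and 25 lower at P0 against E16.5, 9 lower at P3 against P0 and 4 higher at P0 against E13.5. TMM gave 2 and the median of ratios 4 lower at P3 against P0. Keeping only changes of 2-fold or more left 0 higher and 22 lower at P0 against E16.5, 1 higher at P0 against E13.5, and 24 higher and 2 lower at P3 against E16.5. The other 129 values of counts and ratios from settings that kept all libraries stayed within 1.5 times or on the same side of the threshold. With 1 library left out, members higher at P0 against E16.5 numbered 0 to 1, and the other 200 values held.

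Some named genes changed sign with the scaling, which by construction shifts all genes alike. At P0 against E16.5 the log2 fold changes under TMM, median of ratios and equal totals were 0.15, 0.20 and 0.60 for Rpl10, 0.047, 0.092 and 0.50 for Rpl11, and 0.20, 0.24 and 0.65 for Rps23. With equal totals alone they turned to 0.20 for Rpl22, 0.17 for Rpl22l1, 0.057 for Rpl39, 0.15 for Rpl4, 0.31 for Rplp0, 0.24 for Rps27l and 0.37 for Rpsa. At E16.5 against E13.5 equal totals gave 0.0191 for Rpl22l1, 0.20 for Rpl4 and 0.0080 for Rps27. At P3 against P0 Rpl4 turned to -0.0654, -0.22 and -0.62 under the 3 scalings, and equal totals gave -0.17 for Rpl7, -0.015 for Rps27, -0.062 for Rps3a1 and -0.19 for Rpsa. With 1 library left out, uncalled changes crossed 0: Rpl10 (-0.16 to 0.065), Rpl11 (-0.27 to 0.0052) and Rps23 (-0.0931 to 0.13) at P0 against E16.5, and Rpl22l1 (-0.15 to 0.089) and Rps4x (-0.11 to 0.042) at P3 against P0. Depth did not limit the detection of any member, since each had at least 23.9 normalized counts in every library.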
